A study of Mus musculus with 22 samples.

Results

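A set of 10 genes that report on cell adhesion and on the actin cytoskeleton were followed through mouse embryonic stem cells given chromatin inhibitors. They are Tns1, the YAP target genes Ctgf, Cyr61, Ankrd1 and Amotl2, and the actin and smooth muscle genes Tagln, Acta2, Cnn1, Myl9 and Tpm1. They make up 10 of the 18487 genes in the table and were matched by gene symbol. Tns1 was chosen by its measured fall from the NC libraries to the Chaetocin libraries, so that contrast is given below as values without a test. The RNA came from E14 cells, a mouse embryonic stem cell line, in 22 libraries of 11 groups with 2 libraries each. NC is the only group without a named compound, and the labels do not spell the letters out. The other 10 groups received Bromosporine (a bromodomain binder), Chaetocin (an inhibitor of histone lysine methyltransferases), CPTH2 or Garcinol (acetyltransferase inhibitors), DZNep (which blocks S-adenosylhomocysteine hydrolase and so lowers methylation), IOX1 (an inhibitor of 2-oxoglutarate oxygenases), MS023 (an inhibitor of type I arginine methyltransferases), UNC0379 (an inhibitor of SETD8), Valproate (a histone deacetylase inhibitor) or a compound labelled OICR. No dose or duration is in the labels, so whether the compounds were matched for either is unknown. The labels also do not say that the 2 libraries of a group came from separate cultures, and the p-values measure only the spread between these libraries. All libraries had the same median (409) and largest value (221616) after the authors' normalization, and the depth of each library is unknown.

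Tensin 1, the protein of Tns1, is an adaptor that ties integrins to actin filaments at focal adhesions. When the Hippo kinases are inactive, the coactivators YAP and TAZ enter the nucleus and bind TEAD factors, which read the bases GGAATG, and genes such as Ctgf, Cyr61 and Ankrd1 respond. Polymerization of actin frees the MRTF cofactors, which join SRF at a sequence called the CArG box and switch on contractile genes such as Acta2, Tagln and Cnn1. The Hippo pathway and the cytoskeleton are linked, since tension on actin filaments also favours nuclear YAP.

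The 10 genes lie on 6 chromosomes of mm10 (GENCODE M21). Tns1 spans chr1:73910231-74124449 on the minus strand. Among the YAP targets, Ctgf (now Ccn2) is at chr10:24595442-24598683, Cyr61 (now Ccn1) at chr3:145646976-145649981, Ankrd1 at chr19:36111961-36120099 and Amotl2 at chr9:102716672-102733418. Among the actin genes, Tagln is at chr9:45929619-45936058, Cnn1 at chr9:22099216-22109630, Tpm1 at chr9:67022590-67049406, Acta2 at chr19:34241090-34255590 and Myl9 at chr2:156775420-156781658. Exons of Tagln overlap Pcsk7 and Gm48529 on the other strand. Of the 31-base words of its longest transcript, 53.8% also occur, on either strand, in other genes. Its counts, and in part those of Ctgf (11.1%, with Gm15270 on the other strand), are therefore uncertain, since no source used here says that reads were counted by strand.

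Promoter sequence was read from RefSeq (GRCm38.p6) for the 8 genes with an entry, over the 250 bases before the RefSeq start. That start can lie inside the GENCODE span. The windows of Ankrd1, Amotl2, Acta2 and Tpm1 below are inside the spans given above, so they are not upstream of every transcript. GGAATG was searched on both strands and occurred in 5 of them, against 12.6% of all 32851 promoters, and a CArG box occurred in 1, against 1.47%. The CArG box was sought only as CC, then 6 bases of A or T, then GG, so boxes that deviate from it were not counted. The windows of 30 bases below show these matches because TEAD and SRF are the factors for which these genes serve as readouts. They are written 5′ to 3′ along the strand of the gene, with the match in capitals (CATTCC is GGAATG on the other strand).
Cyr61, chr3:145650071-145650100, minus strand: cgcgccaaccaaCATTCCtgagatgtttga
Ankrd1, chr19:36120037-36120066, minus strand: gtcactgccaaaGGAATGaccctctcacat
Ankrd1, chr19:36119950-36119979, minus strand: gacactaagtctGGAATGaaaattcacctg
Amotl2, chr9:102717727-102717756, plus strand: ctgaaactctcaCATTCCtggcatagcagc
Acta2, chr19:34255502-34255531, minus strand: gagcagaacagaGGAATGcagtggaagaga
Tpm1, chr9:67049252-67049281, minus strand: tggctgtcctaaGGAATGcggtcgcccccc
Myl9, chr2:156775293-156775322, plus strand: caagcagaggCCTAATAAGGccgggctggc
The match in Myl9 is the CArG box, and the other 6 windows hold the TEAD letters. Neither sequence was found in the 250 bases of Tns1 or Cnn1, which says only that these letters are not in that window. A match is a description of the letters and not evidence of binding.

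The levels of the 10 genes covered a wide range. Divided by the length of the longest transcript, the mean normalized read count over the 22 libraries was 667.5 per kilobase for Amotl2 and 622.9 for Tpm1. It was 95.39 per kilobase for Tns1, 72.61 for Cyr61 and 54.45 for Ctgf. The contractile genes were far lower, at 7.898 per kilobase for Myl9, 4.845 for Tagln and 4.825 for Acta2. Ankrd1 (0.3375 per kilobase) and Cnn1 (0.1909 per kilobase) were at or near 0. A gene was tested where it had a normalized read count of at least 10 in at least 2 libraries, which 8 of the 10 genes and 17275 of all genes met. Tns1, Ctgf, Cyr61, Amotl2 and Tpm1 met it in every library, Acta2 in 7 libraries, and Tagln and Myl9 in 6 each, so these last 3 genes were tested on few values.

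The labelled cell type was checked first. The 8 embryonic stem cell markers (Pou5f1, Sox2, Nanog, Klf4, Esrrb, Zfp42, Dppa5a and Tdgf1) were all above 0 in every library and summed to between 171573 and 274170 normalized read counts. Markers of cells that use the contractile genes had far lower sums. Not all of them were low by themselves, since Smtn was above the library median of 409 in every library. The 8 fibroblast markers summed to between 99 and 1938, with Dcn at 0 in all libraries, and the 6 smooth muscle markers to between 1385 and 2027. The primitive endoderm markers summed to between 3600 and 12478 (5 of 6 in the table), most of it from Lama1, which was higher in replicate 1 in all 11 groups. The other markers of that list were higher in replicate 2 in most groups, such as Dab2 in 10 of 11. The primitive streak and mesoderm markers summed to between 142 and 407 (5 of 6 in the table). These sums do not show calls of single markers against NC, which are given in the last paragraph. In bulk RNA, fewer cells that express a gene and less of its RNA per cell cannot be told apart.

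Tns1 differed widely between the compounds. The normalized read counts of its 2 libraries were 1870 and 1694 with DZNep, 1510 and 1470 with Valproate, and 1360 and 1346 with UNC0379. In the middle of the order stood NC with 1251 and 880, MS023 with 861 and 1242, OICR with 1138 and 797, and CPTH2 with 861 and 925. Below them were Bromosporine with 639 and 564, Garcinol with 526 and 551, Chaetocin with 338 and 384, and IOX1 with 309 and 399. Each of the middle groups overlapped its neighbour in this order, and so did Chaetocin and IOX1, whereas all other neighbours were separated. The 2 NC libraries themselves differed by more than the 2 libraries of most compounds.

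**Figure D1:**
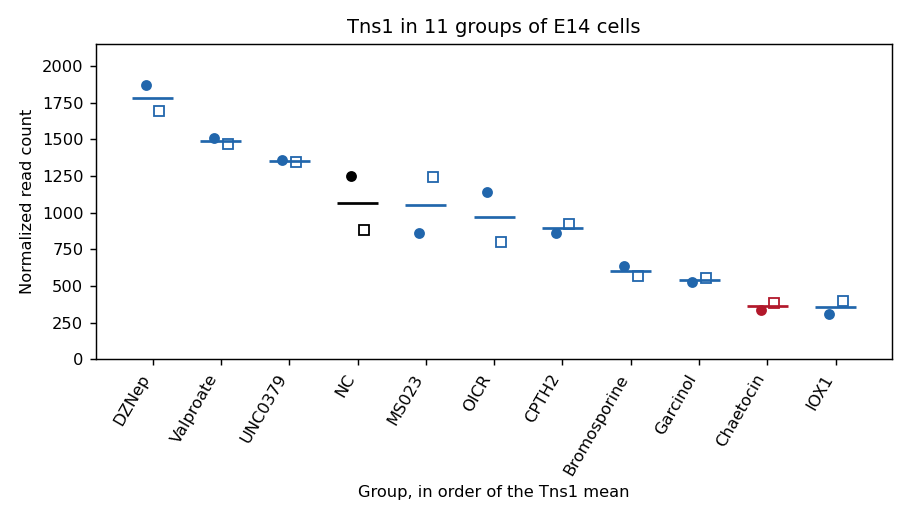
Normalized read count of Tns1 (vertical axis) in the 2 libraries of each group, ordered by group mean from left to right. Filled circles are replicate 1, open squares replicate 2, and bars their mean, with NC in black, Chaetocin in red and the other compounds in blue. Values run from 309 with IOX1 to 1870 with DZNep, and the pair of IOX1 libraries overlaps the pair of Chaetocin libraries.

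In the contrast that chose it, Tns1 had a mean of 361 with Chaetocin against 1065.5 with NC, a difference of -1.54 on the log2(value + 1) scale. The libraries with the same replicate number differed by -1.88 and -1.19. With Chaetocin, 0.0174% of all genes tested were called at a Benjamini-Hochberg (BH) adjusted p under 0.05 in limma with a change over 2-fold. The difference from NC, which shares those NC libraries and is therefore also given without a test, was -1.58 with IOX1, -0.96 with Garcinol and -0.80 with Bromosporine. It was 0.76 with DZNep, 0.51 with Valproate and 0.37 with UNC0379. With CPTH2, OICR and MS023 it was -0.23, -0.14 and -0.02. Thus the Tns1 difference with IOX1 was close in size to that with Chaetocin, and the 2 groups were not compared by a test.

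Tns1 was tested in contrasts that hold neither NC nor Chaetocin, by setting each of the other 9 compounds against the mean of the other 8. The NC and Chaetocin libraries entered only the estimate of the spread. It was higher with DZNep, by 1.12 on the log2 scale (95% interval 0.78 to 1.46, limma, BH-adjusted p = 1.55e-04). It was lower with IOX1, by a log2 difference of -1.51 (95% interval -1.85 to -1.17, limma, BH-adjusted p = 8.83e-04). In a fit without the NC and Chaetocin libraries the BH-adjusted p in limma was 2.58e-04 for DZNep and 0.00162 for IOX1. For both compounds, the 2 libraries lay beyond all 16 libraries of the other compounds. The background differed strongly between these contrasts, as 11.9% of all genes were called with DZNep and 0.631% with IOX1.

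Valproate and Bromosporine passed the adjusted p but not the fold change. Tns1 differed by 0.83 with Valproate (limma, BH-adjusted p = 0.00245) and by -0.64 with Bromosporine (limma, BH-adjusted p = 0.0186), where 7.44% and 5.11% of all genes were called. For Garcinol the difference was -0.82 (limma, BH-adjusted p = 0.0696) and for UNC0379 it was 0.68 (limma, BH-adjusted p = 0.122), against 0.0868% and 0.0695% of genes called. The differences of MS023 (0.24), OICR (0.11) and CPTH2 (0.00) were the smallest, with BH-adjusted p-values in limma of 0.427, 0.868 and 1. The corresponding shares of all genes called were 2.92%, 0.174% and 0.0926%. The difference itself was estimated with the same standard error of 0.16 in every one of these contrasts, and Tns1 was called only with DZNep and IOX1.

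The fibroblast markers were high in some of the groups with high Tns1 and varied within others. Their sum was 1669 and 1938 in the DZNep libraries and 1613 and 1476 in the Valproate libraries, which had the highest Tns1. It was 390 and 730 with IOX1 and 99 and 161 with Chaetocin, which had the lowest. The pairs of 745 and 1476 with NC, 1028 and 173 with UNC0379, 1151 and 397 with MS023 and 106 and 1209 with Garcinol did not follow Tns1. Much of that spread came from Col3a1 and Postn, a collagen and a matrix protein, such as Col3a1 at 4 and 743 in the NC libraries. Against NC, 2 of the 7 fibroblast markers tested were called with DZNep, 2 with Valproate, 1 with Bromosporine and none with IOX1, where 11.4%, 5.28%, 3.34% and 0.116% of all genes were called. The smooth muscle markers summed to 1836 and 1974 with DZNep, 1625 and 1385 with IOX1, 1801 and 1759 with NC and 2027 and 1842 with CPTH2. Most of that sum was Smtn, whose mean was 981.5 with DZNep and 1373.5 with NC. The part of these markers in the Tns1 differences was not tested.

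**Figure D2:**
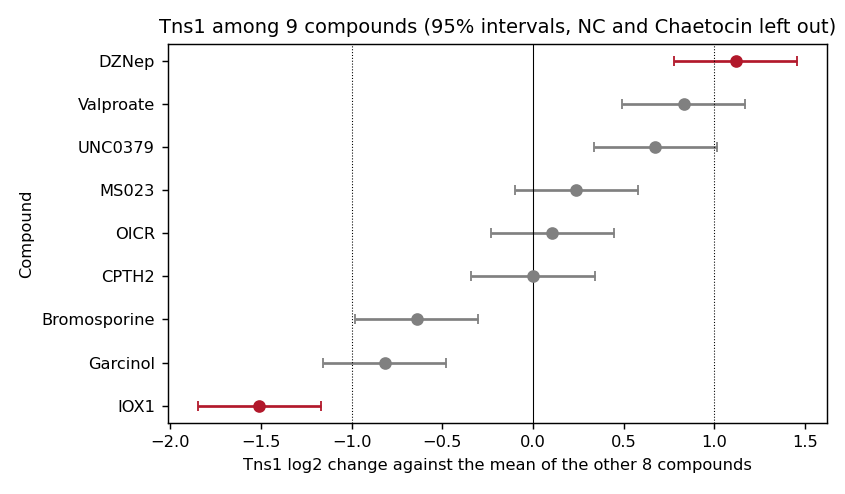
Difference of Tns1 on the log2(value + 1) scale (horizontal axis) between each of 9 compounds and the mean of the other 8, with 95% intervals from limma; dotted lines mark a 2-fold change. The called compounds, in red, are DZNep at 1.12 and IOX1 at -1.51, and the others are grey.

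The YAP and actin target genes were compared with NC for the 9 compounds other than Chaetocin. All of these comparisons share the same NC libraries. Of the 7 genes tested besides Tns1 (Ctgf, Cyr61, Amotl2, Tagln, Acta2, Myl9 and Tpm1), none was called with any compound, 0 of 63 gene and compound pairs. For Tagln, Acta2 and Myl9 the standard errors were 1.32, 1.91 and 0.89 on the log2 scale, so a 2-fold change in them could hardly be called. In limma, 6 pairs had an unadjusted p under 0.05 and 1 had a BH-adjusted p under 0.05. The share of all genes called was 11.4% with DZNep, 5.28% with Valproate, 3.34% with Bromosporine and 0.973% with MS023. It was 0.388% with OICR, 0.116% with IOX1, 0.00579% with CPTH2 and the same 0.00579% with Garcinol. With UNC0379 0% were called. There, 1051 of 17275 genes had an unadjusted p under 0.05 in limma, a limit that a share of about 0.05 would pass without any change.

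Ctgf and Cyr61 encode secreted matricellular proteins and are the most used readouts of YAP. Ctgf had normalized read counts of 318 and 252 with DZNep against 126 and 118 with NC. Those 2 DZNep libraries were above both NC libraries, and the other compounds ranged from 60 with Garcinol to 281 with Valproate. The difference with DZNep was 1.21 on the log2 scale (SE 0.47, 95% interval 0.20 to 2.21, limma, BH-adjusted p = 0.0779), which was not called. Many groups held Ctgf libraries that differed widely, such as 126 and 281 with Valproate, 87 and 164 with UNC0379 and 60 and 126 with Garcinol. Replicate 2 was the higher in each of these, as in 9 of 11 groups, and replicate 1 was higher with NC and DZNep. With Valproate the difference from NC was 0.62 (limma, BH-adjusted p = 0.449).

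Against the mean of the other 9 compounds instead of NC, the difference of Ctgf with DZNep was 1.32 and called (limma, BH-adjusted p = 0.0103).

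Cyr61 had 261 and 243 with DZNep against 131 and 123 with NC, and the DZNep values were above every other library of the series. The difference was 0.98 (SE 0.27, limma, BH-adjusted p = 0.0175), which passed the adjusted p and fell just short of the 2-fold limit, at a fold of 1.98. Without the second DZNep library it was 1.03 and called (limma, BH-adjusted p = 0.0451). UNC0379 had the next highest Cyr61, 179 and 180, with a difference of 0.50 (limma, BH-adjusted p = 0.863). The lowest mean was with IOX1, 90 and 113, with a difference of -0.33 (limma, BH-adjusted p = 0.615). All other groups lay between 96 and 171.

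Ankrd1, which encodes an ankyrin repeat protein of striated muscle and responds to YAP, was at 0 in 18 of 22 libraries. It had 4 and 7 normalized read counts with DZNep, 0 and 2 with Chaetocin, and 2 and 0 with OICR. It was too low to test.

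Amotl2 encodes an angiomotin family protein that binds YAP, and it was the most abundant of the 10 genes per kilobase. Its libraries ranged from 1694 to 3791. NC had 3254 and 2548. The lowest pair was Valproate with 2188 and 1694, a difference of -0.58 from NC (95% interval -1.06 to -0.10, limma, BH-adjusted p = 0.122). Amotl2 with DZNep (3772 and 2294) straddled the NC values, unlike Ctgf and Cyr61, with a difference of 0.03 (95% interval -0.45 to 0.51) that changed sign with the library left out. The differences between these genes were not tested.

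**Figure D3:**
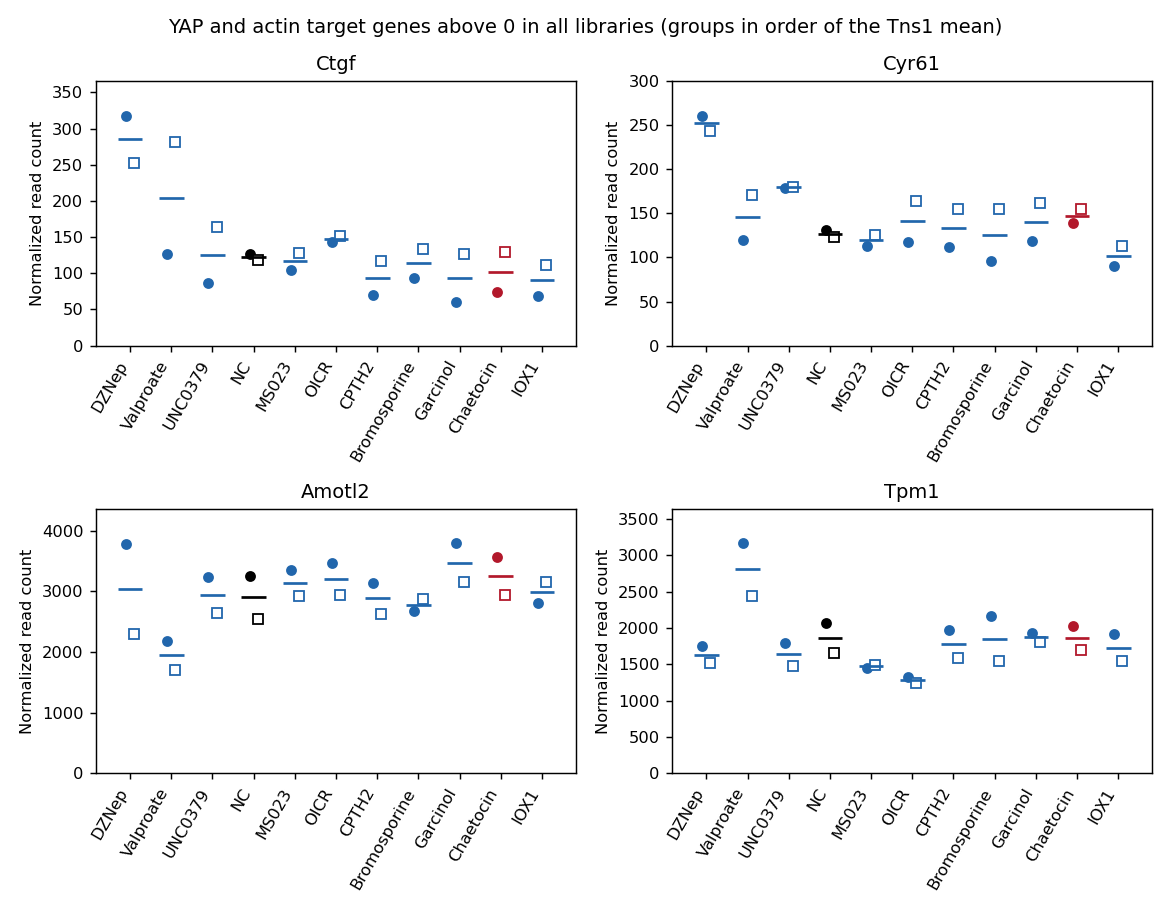
Normalized read counts (vertical axes, each from 0) of Ctgf, Cyr61, Amotl2 and Tpm1 in the 2 libraries of each group, in the order of the Tns1 mean; filled circles are replicate 1, open squares replicate 2 and bars the mean, with NC in black and Chaetocin in red. Ctgf and Cyr61 have their highest means with DZNep, 285 and 252, Amotl2 its lowest with Valproate, 1941, and Tpm1 its highest with Valproate.

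Tpm1 encodes a tropomyosin, which winds along actin filaments. Its normalized read counts were 3168 and 2446 with Valproate against 2067 and 1655 with NC. The pair of Valproate libraries was above all others of the series. The difference was 0.59 (SE 0.19, limma, BH-adjusted p = 0.0693), which met neither limit of a call. OICR had the lowest pair, 1330 and 1249, with a difference of -0.52 (limma, BH-adjusted p = 0.31). In the other groups, Chaetocin included, Tpm1 lay between 1453 and 2160.

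Myl9, the regulatory light chain of smooth muscle and nonmuscle myosin and the gene with the CArG box above, was low throughout. It had 16 and 52 with Valproate against 3 and 11 with NC, and 7 and 20 with IOX1. Both Valproate libraries were above both NC libraries but far apart, and the difference was 2.12 with a standard error of 0.89 (limma, BH-adjusted p = 0.162). It was 1.30 without the second Valproate library and 1.32 without the first NC library, and 2.94 and 2.91 without the other library of each group. Against the mean of the other 9 compounds the difference was 2.30 and called (limma, BH-adjusted p = 0.0253). OICR had 1 in both libraries. All remaining libraries, those of IOX1 aside, had between 2 and 12.

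Tagln (transgelin) and Acta2 (smooth muscle actin) varied as much within groups as between them. Tagln was 0 and 19 in the NC libraries and 1 and 32 in the OICR libraries, and its highest value elsewhere was 17. Acta2 was 0 and 29 with NC, 0 and 50 with OICR, 24 and 0 with MS023, 6 and 33 with Garcinol and 18 and 24 with IOX1. It was listed at 0 in 11 of 22 libraries, in both libraries of Bromosporine, Chaetocin, CPTH2 and UNC0379 among them. No fold was drawn from such values. Cnn1 (calponin 1), another contractile gene, never exceeded 1 and was not tested.

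**Figure D4:**
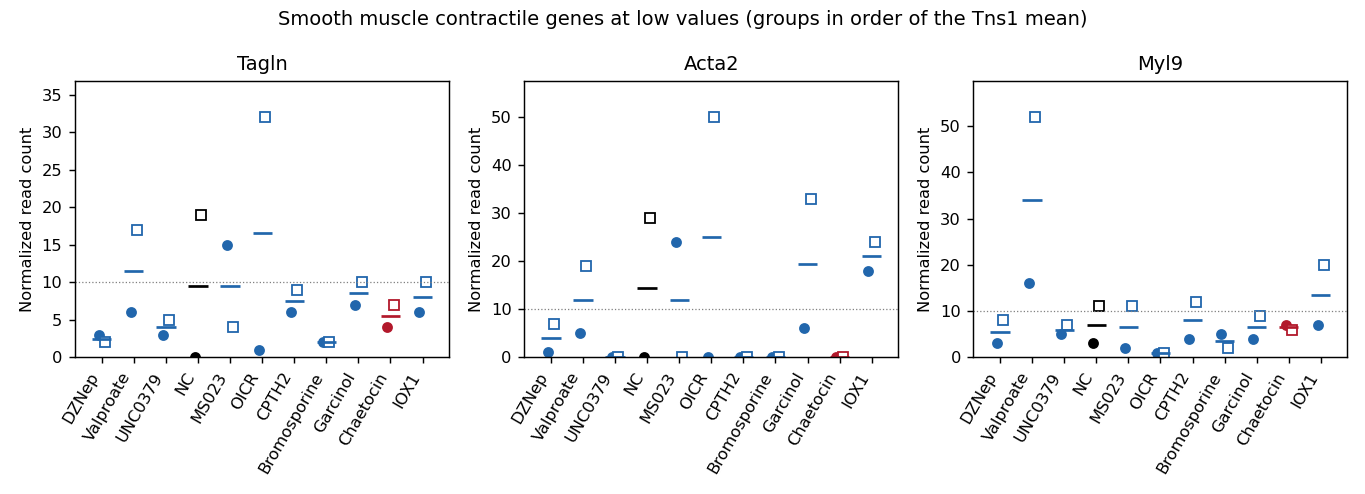
Normalized read counts (vertical axes) of Tagln, Acta2 and Myl9 in the 2 libraries of each group, in the order of the Tns1 mean; filled circles are replicate 1, open squares replicate 2, bars the mean, and the dotted line the minimum of 10. Most points lie under 10, and the pairs of NC and of OICR span 0 to 29 and 0 to 50 for Acta2.

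With Chaetocin, the other target genes are given as values only. Ctgf was 74 and 129, Cyr61 139 and 155, Amotl2 3562 and 2933, and Tpm1 2031 and 1704. Ctgf, Amotl2 and Tpm1 overlapped NC, and the 2 Cyr61 libraries lay above both NC libraries by a mean log2 difference of 0.21. Tns1 thus stood apart from the other expressed genes in this contrast, which is what it was chosen for.

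The wider pathways were followed in 5 lists of 93 genes, 86 of them tested. Over the 9 compounds, 16 of 774 gene and compound pairs were called (2.07%), 11 higher and 5 lower than NC, beside 2.39% of the pairs of all genes (1577 higher and 2139 lower). All 16 calls were with DZNep, Valproate or Bromosporine, the compounds with the most calls among all genes. The share of the lists was thus near the background, and 4 of the lists are described here.

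Among further YAP and TAZ targets, 15 of 18 were tested and 2 of 135 pairs were called (1.48%), both of Ptpn14. Ptpn14 encodes a phosphatase that binds YAP. It had 4371 and 3886 with DZNep and 1258 and 1694 with Valproate, against 530 and 636 with NC. It rose by 2.83 with DZNep (SE 0.26, limma, BH-adjusted p = 1.36e-05) and by 1.33 with Valproate (limma, BH-adjusted p = 0.00596). The other 14 targets were not called with any compound. The median difference of the list was 0.21 with DZNep and 0.16 with Valproate, beside -0.04 and -0.02 over all genes.

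The list of SRF and actin targets had 22 of 24 genes tested and 7 of 198 pairs called (3.54%), 6 higher and 1 lower. Tpm2, another tropomyosin, rose with DZNep (199 and 319 against 75 and 57, log2 difference 1.93, limma, BH-adjusted p = 2.48e-04) and with Valproate (148 and 162, difference 1.23, limma, BH-adjusted p = 0.0104). Cnn2, a calponin of nonmuscle cells, went in opposite directions. It fell with DZNep (135 and 146 against 379 and 687, difference -1.85, limma, BH-adjusted p = 0.00187) and rose with Valproate (1785 and 797, difference 1.22, limma, BH-adjusted p = 0.0386). Zyx, whose protein zyxin sits in focal adhesions and stress fibres, rose with Valproate from 141 and 88 to 274 and 241 (1.20, limma, BH-adjusted p = 0.032). Fhl2, a LIM-domain cofactor, rose with DZNep from 54 and 46 to 130 and 120 (1.31, limma, BH-adjusted p = 0.0497). Lmod1, a leiomodin that nucleates actin in smooth muscle, had means of 91.5 with DZNep and 34.5 with NC (1.41, limma, BH-adjusted p = 0.00557), and is named although its level was under the limit of 100 set for naming. The median difference of this list was -0.34 with DZNep, on the other side of 0 from 3 of its 4 calls, and 0.25 with Valproate.

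Of the Hippo pathway components, all 20 were tested and 4 of 180 pairs were called (2.22%). Tead4, one of the TEAD factors that bring YAP to DNA, fell with DZNep from 1793 and 1699 to 883 and 817 (-1.04, limma, BH-adjusted p = 1.68e-04). Amot, which holds YAP in the cytoplasm, rose with Valproate from 47 and 59 to 180 and 168 (1.70, limma, BH-adjusted p = 0.00299) and with Bromosporine to 121 and 108 (1.10, limma, BH-adjusted p = 0.0475). Vgll4, which competes with YAP for TEAD, rose with Valproate from 301 and 247 to 717 and 755 (1.43, limma, BH-adjusted p = 0.00518). The median of the list was -0.33 with DZNep and 0.06 with Valproate.

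Of the tensins and focal adhesion genes, 16 of 17 were tested and 2 of 144 pairs were called (1.39%), both of Tns2. Tns2, a relative of Tns1, fell with DZNep from 438 and 335 to 83 and 72 (-2.29, limma, BH-adjusted p = 4.10e-05) and with Valproate to 258 and 139 (-1.01, limma, BH-adjusted p = 0.02). Tns3, the most abundant tensin, had 4787 and 3338 with DZNep against 4414 and 4190 with NC and was not called (-0.11, limma, BH-adjusted p = 0.681). Tns4 was too low to test. With DZNep and Valproate, Tns1 had its highest values. The median of the list was -0.39 with DZNep.

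Several of these calls were lost when a library was left out. The lone library of that group was then assumed to vary like the other groups, and some calls were lost with a difference about as large as before. Without the first NC library the Valproate differences were 1.20 for Ptpn14, 0.80 for Cnn2 and -0.82 for Tns2, and none of them was called (limma, BH-adjusted p = 0.0603, 0.305 and 0.161). Without the second Valproate library, they were 1.11 for Ptpn14, 1.17 for Tpm2, 1.29 for Zyx and -0.57 for Tns2, again uncalled (limma, BH-adjusted p = 0.0504, 0.0554, 0.0766 and 0.149). Without the first Valproate library, Cnn2 was at 0.64 and Zyx at 1.11 (limma, BH-adjusted p = 0.344 and 0.162). Without the second NC library, Tpm2 with Valproate was at 1.04 and Zyx at 0.86 (limma, BH-adjusted p = 0.0935 and 0.241). Tead4 with DZNep was at -0.999 without the first NC library and at -0.98 without the second DZNep library, both just inside 2-fold. Lmod1 with DZNep was at 1.14 without the first NC library (limma, BH-adjusted p = 0.0728). The calls of Fhl2 with DZNep and Amot with Bromosporine were lost in 21 and 23 of 29 alternative fits, with differences of 1.17 to 1.98 and 0.94 to 1.26.

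**Figure D5:**
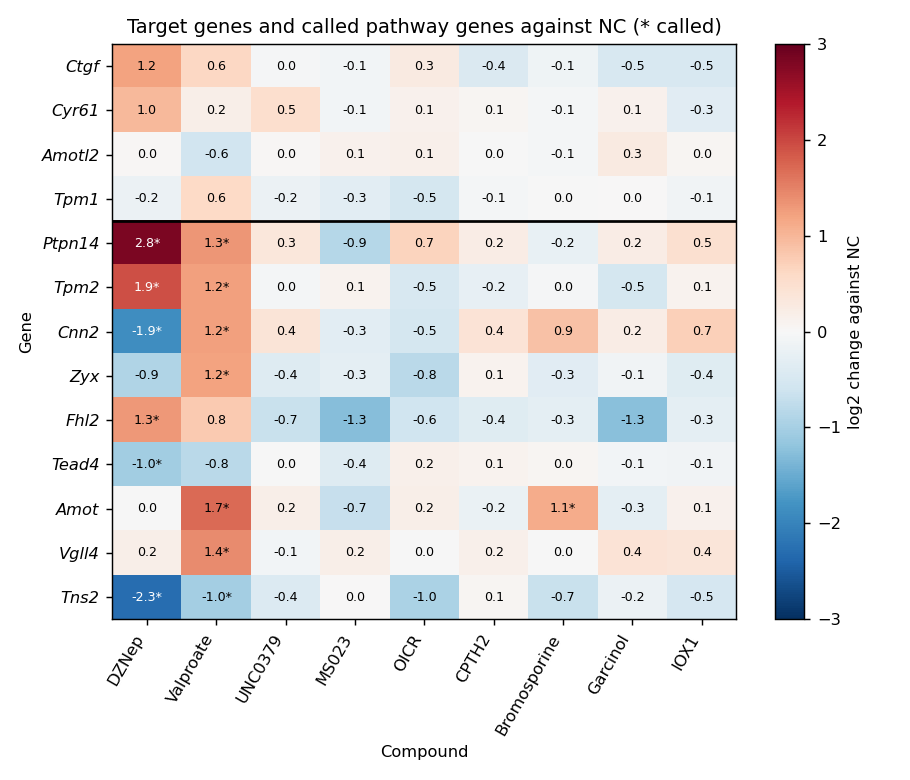
Difference from NC on the log2(value + 1) scale (colour and printed value) for 4 target genes above the black line and 9 called pathway genes below it, in 9 compounds ordered by the Tns1 mean; asterisks mark calls in limma. The calls stand in the DZNep, Valproate and Bromosporine columns, from 2.83 for Ptpn14 to -2.29 for Tns2, both with DZNep.

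The genes most like Tns1 were looked for among 12588 genes above 0 in all libraries with a mean of at least 100. The closest in log2(value + 1) over the 22 libraries were Naa11 (Pearson r = 0.84), Samd7 (0.827), Zc4h2 (0.821), Ccdc172 (0.811) and Kdm2b (0.811). These correlations are descriptions over libraries that share groups and a common normalization, and the 5 genes were selected for them. The 22 libraries include those of NC and Chaetocin, the contrast that chose Tns1. Without these 2 groups r was 0.828 for Naa11, 0.902 for Samd7, 0.855 for Zc4h2, 0.813 for Ccdc172 and 0.877 for Kdm2b. Naa11, an N-terminal acetyltransferase subunit, had a mean of 227.5 with IOX1, 253.5 with Chaetocin, 393 with NC, 558.5 with DZNep and 718 with Valproate. Kdm2b, a histone demethylase that binds CpG islands, had 2158 with IOX1, 2443 with Chaetocin, 2619 with NC, 3611 with Valproate and 4273 with DZNep. Unlike Tns1, it was lower with Bromosporine (2117) and Garcinol (2172) than with Chaetocin. Kdm2b shares 24.8% of its 31-base words with other genes, mostly Rnf34, and is uncertain in that measure. Of the target genes tested, Ctgf (r = 0.643) and Cyr61 (0.522) had the highest r with Tns1, and those of Tpm1 (0.047), Myl9 (0.0465), Acta2 (-0.156), Tagln (-0.209) and Amotl2 (-0.313) were lower. These values also include the NC and Chaetocin libraries.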

How the data were processed

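RNA was measured in 22 libraries, grouped by the sample titles and treatment labels. The deposited values are scores: gene read counts that the authors normalized with EDASeq and rounded to whole numbers, in a table where each library has the same distribution. The submitters' processing notes name bcl2fastq, Bowtie2 2.2.5, RSEM and mm10. The study's methods, which do not mention the compounds, were taken to apply. Such scaling hides differences in depth and total RNA, and no interval that needs depth was given. Of the columns, 0 matched no sample. A second table held the authors' group means and was used only to check the first.

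Values were analysed as log2(value + 1) with limma 3.58.1 in R 4.3.3. A model of 11 group means (11 residual degrees of freedom) was fitted to all genes with at least 10 in at least 2 libraries, with moderated variances and a trend. P-values were two-sided and Benjamini-Hochberg adjusted within each contrast over all 17275 genes. Calls needed an adjusted p under 0.05 and a change over 2-fold. A fold on this scale understates the change of low genes. The code was tested on simulated data. The genes and lists were chosen with earlier results of these data known. Named were the 10 genes, up to 5 called genes per list with a group mean of at least 100, and the 5 genes most correlated with Tns1. Alternatives were a pseudocount of 10, no filter, fits of the compared groups only, a replicate block, rescaling by median ratios, adjustment over all contrasts, another reference and leaving out each library. A list, which enters the totals over all lists, is not reported here.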

Additional observations from a re-analysis of the deposited data

How the results depend on the processing

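The higher Tns1 with DZNep and the lower Tns1 with IOX1 kept their direction and call in all 28 alternatives, with differences of 1.05 to 1.19 and -1.69 to -1.33. The 0 calls of the other target genes against NC became 1 after median-ratio rescaling (Cyr61 with DZNep, 1.03, limma, BH-adjusted p = 0.0109) and 2 against the other 9 compounds (Ctgf with DZNep and Myl9 with Valproate). Leaving out 1 library at a time gave 0 to 1. The 16 pathway calls became 1 when only the compared groups were fitted, which leaves 2 libraries a group to estimate the spread. They were 9 to 23 with 1 library left out, with 9 without the first NC library and 10 without the second Valproate library. No called difference named here changed direction. Differences near 0 did. Tns1 with CPTH2 (0.00) was -0.0019 with a pseudocount of 10, -0.0132 after rescaling and -0.0513 to 0.0520 with 1 library left out. With 1 library left out, Tns1 was -0.0248 to 0.503 with MS023 and -0.151 to 0.362 with OICR, Amotl2 with DZNep -0.328 to 0.389, and Tns3 with DZNep -0.365 to 0.155.

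With the replicate number as a block, 2 target gene pairs were called, Ctgf with DZNep (1.21, limma, BH-adjusted p = 0.00874) and Myl9 with Valproate (2.12, limma, BH-adjusted p = 0.0444), and 30 pathway pairs, while the 2 Tns1 calls stayed. Deviations of libraries with the same number correlated at 0.0535 to 0.298 over 55 pairs of groups, above 0.1 in 51, and at 0.0836 to 0.183 with NC. All of these correlations were positive, with a median of 0.196 over the pairs of groups. Libraries with the same number thus shared part of their deviation, which the main fit counts as spread. The labels give no shared day or batch and not every pair passed 0.1, so the numbers were not taken to pair the libraries. Depth per library is unknown, which limits Tagln, Acta2, Myl9, Ankrd1 and Cnn1 most.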

Other observations

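Several of the target genes differed by replicate number across the groups. Ctgf and Cyr61 were each higher in replicate 2 in 9 of 11 groups. Tpm1 was higher in replicate 1 in 10 of 11 groups and Amotl2 in 9 of 11. What the replicate numbers stand for is not in the labels.

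Of the smooth muscle markers, Des, an intermediate filament of muscle, changed with 2 compounds. Its group mean was 55 with Bromosporine, 294 with NC and 675.5 with DZNep, differences from NC of -2.40 and 1.19 (limma, BH-adjusted p = 1.48e-04 and 0.00278). Synpo2 was called lower with MS023, at a mean of 9 against 32.5 with NC (-1.86, limma, BH-adjusted p = 0.0436). Lmod1 was called with DZNep, as given above. With DZNep, Des, Lmod1, Myh11 and Synpo2 had higher means than with NC, and Smtn and Mylk had lower means. Of the fibroblast markers, Col1a1, a chain of type I collagen, had a mean of 24 with NC, 6.5 with Bromosporine (-1.74, limma, BH-adjusted p = 0.00931) and 277.5 with DZNep (3.45, limma, BH-adjusted p = 1.79e-05). Thy1, a surface glycoprotein, had 11.5 with NC, 65 with DZNep (2.40, limma, BH-adjusted p = 0.00115) and 330.5 with Valproate (4.73, limma, BH-adjusted p = 3.01e-05). Lum, a matrix proteoglycan, was called with Valproate, with 197 and 331 against 0 in both NC libraries. It was also 346 and 0 in the CPTH2 libraries and 0 in the libraries of every other group, so it jumped within a group as well. Pdgfrb, a growth factor receptor, had a lower mean with DZNep, 60.5 against 162.5, and was not called (limma, BH-adjusted p = 0.0956). Of all genes, 11.4% were called with DZNep, 5.28% with Valproate, 3.34% with Bromosporine and 0.973% with MS023. The Col1a1 call with Bromosporine was lost without the first NC library, at the same difference of -1.74 (limma, BH-adjusted p = 0.0717), and without the second Bromosporine library, at -1.64 (limma, BH-adjusted p = 0.0514).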
